A study of Mus musculus with 13 samples.

Results

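Of 18216 binding peaks called for the construct Fezf2-A-V5, 7077 (38.9%, 95% Wilson interval 38.1% to 39.6%) overlapped no peak of the construct Fezf2-E-V5 by even 1 bp. These Fezf2-A-only peaks are described here, beside the 11139 Fezf2-A peaks that shared at least 1 bp with a Fezf2-E peak. The members were chosen from the peak calls themselves, so the share, and every strength and distance that follows from the same calls, is a description and was given no test. The study has 10 RNA libraries of mouse neocortex and 3 chromatin immunoprecipitation sequencing (ChIP-seq) libraries, and the latter are used here. All 3 were made from Neuroblastoma 2A (N2A) cells, a line derived from a mouse tumour of neural crest origin. The cells were transfected with a CAG plasmid and fixed 48 h later. The plasmids were CAG-Fezf2-A-V5 and CAG-Fezf2-E-V5, which over-express Fezf2 with a V5 tag, and CAG-V5, the control with the tag alone. There was 1 library per plasmid, so the peaks describe an introduced, tagged factor in a cell line. What sets construct A apart from construct E was not stated in the labels. No RNA of N2A cells was analysed here, so the identity of the line was not checked by its markers.

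Fezf2 is a zinc-finger transcription factor of the forebrain. It is expressed in progenitors of the cortex and in deep-layer neurons, and it is best known for directing the fate of the neurons that send axons from the cortex to the brainstem and spinal cord. In ChIP-seq, fragments of chromatin that carry the tagged protein are pulled down and sequenced, and a peak caller marks the places where they pile up above a local background. A peak's pileup is the number of fragments stacked at its highest point, the summit. Its fold enrichment is that pileup over the local background, and its q is the adjusted probability that background alone would give such a pileup. These values per peak are the authors'. A place missing from a peak list is one where the signal did not pass the caller's limit, which is not the same as a place with no binding.

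The lists differ in ways that bear on what counts as found in one alone. The Fezf2-A list is tied to its library by its name, and the control and q limit used for it are not stated in it. Its lowest −log10 q was 2, against 2.01 in the Fezf2-E list. The Fezf2-E list held 21338 peaks, of which 10023 overlapped no Fezf2-A peak. The narrowest Fezf2-A peaks were 176 bp wide and the narrowest Fezf2-E peaks 142 bp, and the latter is the fragment size given in the header of the Fezf2-E list. Pileup divided by fold enrichment gives the local background behind each peak, here called the implied background, and its lowest value was 1.4 fragments in the Fezf2-A list and 1.67 in the Fezf2-E list. With the genome size in that header, and the smallest width taken as fragment size, the Fezf2-E value corresponds to about 22000000 tags, and the header states 21959213 after filtering. By the same arithmetic the Fezf2-A value corresponds to about 14800000 tags. This depth is implied by the peak values and is not stated in the sources used here.

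Fezf2-A-only peaks were mostly of modest strength and became rare among strong peaks. Their fold enrichment ran from 1.29 to 26.5, with a median of 7.02 and the middle range between the quartiles at 5.62 to 8.54. Shared Fezf2-A peaks had a median of 7.93 and quartiles of 6.28 and 10.1, and their highest value was 55.7. The distributions thus overlapped over most of their range and parted at the strong end. The median −log10 q was 5.29 for Fezf2-A-only and 7.79 for shared peaks, and the median pileup was 15 against 18 fragments. For comparison, the peaks found only with Fezf2-E had a median fold enrichment of 6.33, a median −log10 q of 5.26 and a median pileup of 16.

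**Figure D1:**
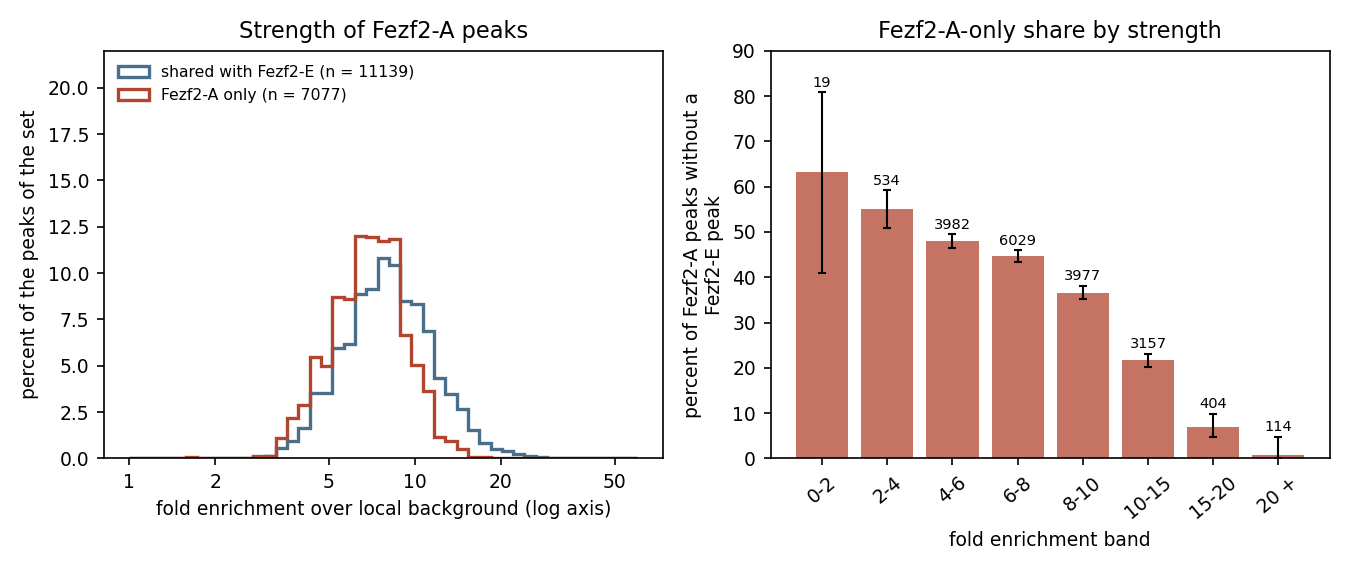
Left, percent of the peaks of each set by fold enrichment (log axis), for 7077 Fezf2-A-only and 11139 shared Fezf2-A peaks. Right, percent of Fezf2-A peaks with no Fezf2-E peak in each band of fold enrichment, with 95% Wilson intervals and the number of Fezf2-A peaks above each bar; the share falls from 63.2% below 2, where there are 19 peaks, and 55.1% at 2 to 4 to 0.877% at 20 or more.

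The share of Fezf2-A peaks without a Fezf2-E peak fell steadily with strength, as the plot of strength shows. It was 63.7% of the 948 peaks with −log10 q from 2 to below 3 (interval 60.6% to 66.7%), and 56.3% from 3 to below 5. It was 40.3% of the 8889 peaks from 5 to below 10, 14.3% of the 3523 from 10 to below 20, and 2.94% of the 646 at 20 or more (interval 1.89% to 4.55%). Fold enrichment gave the same order, from 47.9% at 4 to 6 and 44.7% at 6 to 8 down to 36.6% at 8 to 10, 21.7% at 10 to 15 and 6.93% at 15 to 20. Above 20-fold, 1 of 114 Fezf2-A peaks was found with Fezf2-A alone. Among the 100 Fezf2-A peaks of highest fold enrichment 1 was Fezf2-A-only, among the top 1000 there were 85, and among the top 5000 there were 1134 (22.7%). By −log10 q the top 100 held none, which allows a share of up to 3.70% by the Wilson interval, and the top 1000 held 36. These intervals cover counting error only and treat peaks as independent, which neighbouring peaks are not.

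Strong members nevertheless existed. Of the 7077, 713 had a fold enrichment of at least 10, where 20.2% of all Fezf2-A peaks reach that value, and 29 had at least 15, where 2.84% of all do. A −log10 q of 10 or more was reached by 523 members (7.39%), against 22.9% of all Fezf2-A peaks. The rule used the same calls, so nothing is read from these lower shares. The 523 were wider than the members in general, at a median of 293 bp. Of them, 81 (15.5%) had a Fezf2-E peak within 1 kb, while 70 (13.4%) had none within 100 kb. Over all members these shares were 21.5% and 10.3%. Of the 523, 514 stood on an implied background under 20 fragments, and the others had folds near 1 or a little above.

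The strongest member by fold enrichment lay at chr8:52894874-52895161 (mm9). It had a pileup of 37 fragments, a fold enrichment of 26.5 and a −log10 q of 34.46, and its nearest Fezf2-E peak, of 7.86-fold, lay 101 kb away. It ranked 23rd of all Fezf2-A peaks by fold enrichment. Next came chrX:11802900-11803201 at 19.3-fold with a pileup of 27, then chr7:46773020-46773369 and chr7:144496644-144496927, both at 18.6-fold with a pileup of 26. The former of these chromosome 7 peaks had no Fezf2-E peak within 2.11 Mb, and the latter had one 105 kb away. Peaks at chrX:158614295-158614881, chr17:87742672-87742986 and chr11:35975307-35975777 followed at 17.9-fold, 17.6-fold and 17.5-fold, with pileups of 25, 32 and 28. The last of the 10, at chr14:51564509-51564837, chr17:35158375-35158587 and chr2:103183708-103184145, each had a pileup of 24 and a fold enrichment of 17.2. Of these 10 peaks the one at chr17:35158375-35158587 lay nearest to a Fezf2-E peak, at 4.92 kb, and the one at chr11:35975307-35975777 came next at 13.6 kb. Of the 10, 8 stood on the lowest implied background of the list. That floor, an implied background below 1.4 fragments, held for 1204 members (17.0%), against 12.9% of all Fezf2-A peaks.

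A few members combined a high q with a fold near 1. The peaks at chr14:13174896-13175320 and chr14:13176868-13177715 each had a pileup of 704 fragments, the highest of the whole list, at folds of 1.67 and 1.65 and −log10 q of 30.7 and 29.5. At chr2:98506628-98507484, chr2:98502402-98503040 and chr2:98505154-98505425 pileups were 659, 641 and 400 at folds of 1.65, 1.64 and 1.59. The peak at chr6:103599084-103599346 had a pileup of 359 at 1.58-fold, and those at chr9:3023431-3023623 and chr9:3024372-3024559 had 349 and 313 at 1.87-fold and 1.85-fold. An implied background of 20 fragments or more marked 15 members in all, in short stretches of chromosomes 2, 6, 9, 11 and 14, where 0.165% of all Fezf2-A peaks (30) stand on such a background. The background behind these peaks was thus far above the median of 2.04 fragments of the members. Without peaks of such background the share of members was 38.8% and their median fold, width and pileup were as before. Outside them the highest pileup of a member was 48. Of the strongest peaks by q that had neither a top fold nor this background, 1 lay on chromosome 18, with a pileup of 46 at 10.9-fold. Another, at chr2:101796265-101796740, had a pileup of 37 at 15.3-fold.

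Fezf2-A-only peaks were narrower than shared ones. Their widths ran from 176 to 968 bp with a median of 235 bp (quartiles 193 and 301), against a median of 325 bp (quartiles 241 and 447) and a maximum of 2069 bp for shared peaks. The smallest width, 176 bp, was that of 989 members (14%), where 7.95% of all Fezf2-A peaks have it and 4.13% of the shared ones. A wider peak has more room to touch a peak of the other list, and width grows with strength. Widths were also compared within bands of −log10 q, which hold strength only roughly alike. Median pileups of members and shared peaks were 16 and 17 from 5 to below 10, and 22 and 26 at 10 or more. Within each band the rule still sorts wider peaks toward the shared set, so the comparison cannot set that effect apart. Members were the narrower set in every band, at medians of 232 against 261 bp for −log10 q from 2 to below 3, 225 against 263 bp from 3 to below 5, 235 against 302 bp from 5 to below 10, and 293 against 408.5 bp at 10 or more. Of Fezf2-A peaks under 177 bp 68.3% were Fezf2-A-only, of those from 250 to below 300 bp 42.7%, and of those of 700 bp or more 3.91%.

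**Figure D2:**
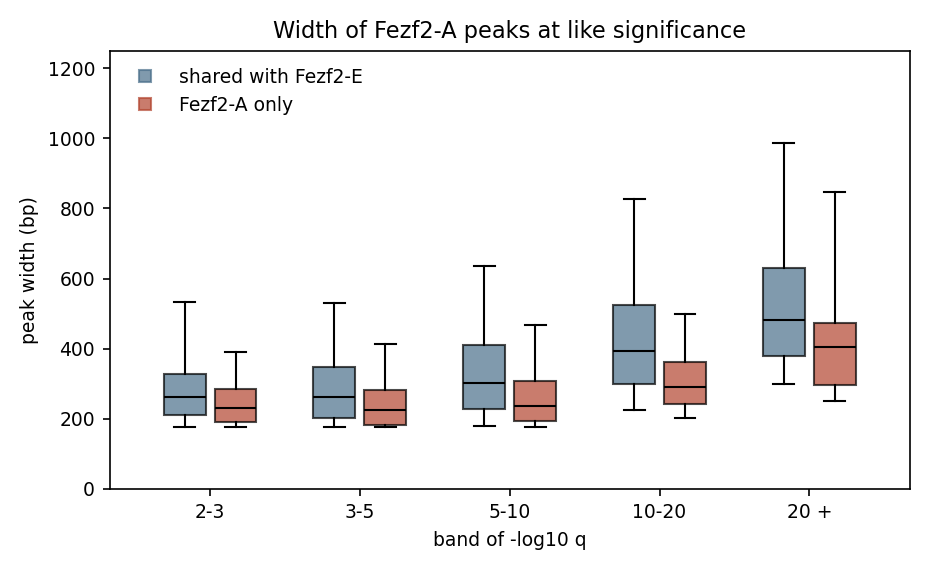
Peak width in bp (vertical axis) by band of −log10 q for Fezf2-A-only and shared Fezf2-A peaks. Boxes span the quartiles with the median as a line, and whiskers reach the 5th and 95th percentiles; in each band the median of the Fezf2-A-only peaks is the lower, as at 235 against 302 bp from 5 to 10.

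The widest member, at chr3:68379980-68380947, spanned 968 bp with a pileup of 16 and a fold of 6.61. Those at chr8:26180841-26181754, chr1:64168448-64169349, chr13:96387777-96388656 and chr4:151699512-151700384 spanned 914, 902, 880 and 873 bp, with folds of 5.62, 8.87, 6 and 5.78. The widest members were thus mostly of middling fold. Their −log10 q ran from 5.24 to 9.42, and most of them stood above the members' upper quartile of 7.1. Of these 5, 4 had a Fezf2-E peak within 428 to 3558 bp. The narrowest, taken by position among the 989 of 176 bp, were chr1:7386991-7387166, chr1:13362643-13362818 and chr1:16167728-16167903, with folds of 4.96, 7.12 and 5.78 and pileups of 12, 11 and 14. The summit of a member lay a median of 31.5 bp from the peak's centre (quartiles 14 and 59.5), against 39.5 bp in the wider shared peaks.

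Most members lay kilobases away from the nearest Fezf2-E peak, and a minority lay close to one. Measured as the bases between peak edges, the gap had a median of 12482 bp (interval 11703 to 13246) and quartiles of 1455 and 40789 bp. A Fezf2-E peak lay within 1 kb of 1524 members (21.5%), within 10 kb of 3241 (45.8%), within 100 kb of 6347 (89.7%) and within 1 Mb of all but 33. In bins of equal width on a log scale the gaps had a nearly flat shoulder, with 415 members at 562 to 1000 bp, 341 at 1778 to 3162 bp and 440 at 3162 to 5623 bp, before a maximum of 855 at 17783 to 31623 bp. The peaks found only with Fezf2-E had a like distribution around Fezf2-A peaks, with a median of 12152 bp and 21.1% within 1 kb. Shared Fezf2-A peaks lay nearer to the next Fezf2-E peak that did not overlap them, at a median of 7734 bp, with 26.1% within 1 kb.

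**Figure D3:**
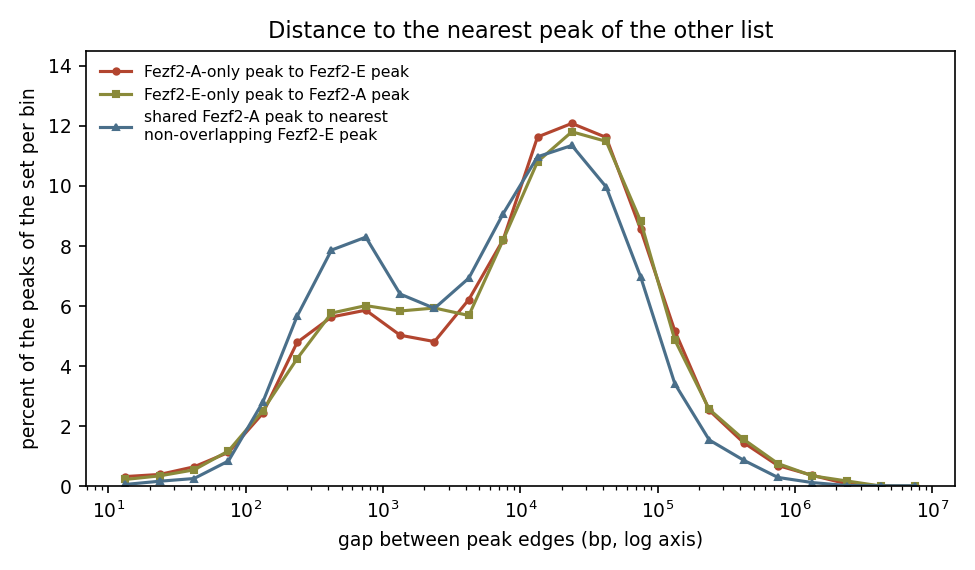
Percent of the peaks of each set (vertical axis) by gap between peak edges in bp (log axis, bins of equal width on it, gaps under 10 bp not drawn), for Fezf2-A-only peaks to Fezf2-E peaks, the reverse, and shared Fezf2-A peaks to the nearest Fezf2-E peak that does not overlap them. All 3 curves have their maximum between 10 and 100 kb and a shoulder at shorter gaps, which is highest for shared peaks, of which 26.1% lie within 1 kb.

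Members far from a Fezf2-E peak had somewhat higher folds over a lower background than those near one. Fold enrichment had medians of 6.63 for gaps up to 1 kb, 6.78 over 1 to 10 kb, 7.05 over 10 to 100 kb and 7.87 over 100 kb, while the median implied background fell from 2.24 to 1.81 fragments between the first and the last of these groups and the median pileup from 15 to 14. Widths hardly moved, at medians of 235.5, 236, 233 and 242 bp. For the 1524 members within 1 kb, the summits of the neighbouring peaks were a median of 634.5 bp apart. Of these nearest Fezf2-E peaks 817 (53.6%) themselves overlapped another Fezf2-A peak, so that the member stood beside a shared peak, and the others were found with Fezf2-E alone. The same proportion was 39.7% for gaps up to 200 bp, 58.5% over 200 to 500 bp and 54.9% over 10 to 100 kb. In the whole Fezf2-E list 11315 of 21338 peaks overlapped a Fezf2-A peak. That proportion is close to the 53.6%, so no trait of the members within 1 kb as a group is read from the latter. The 39.7% for gaps up to 200 bp lay below the proportion of the whole list, and the cause was not tested.

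At the edge of the rule, 3 members touched a Fezf2-E peak with no base between them. These were chr12:9016528-9016703, chr5:100859897-100860073 and chr5:101926061-101926272, with folds of 6.4, 6.87 and 8.81. Just outside the rule, chr15:74551259-74551434 shared 1 bp with a Fezf2-E peak at 6.61-fold, and chr10:83900698-83901166 and chr17:27771633-27772076 shared 2 bp each at 4.68-fold and 8.80-fold. In all, 108 members had a gap under 50 bp and 175 shared peaks an overlap of at most 50 bp. Their median folds were 6.77 and 6.79, their median widths 235.5 and 239 bp, and their median −log10 q 4.57 and 4.98. Peaks just inside the rule were thus close to those just outside in fold and width and lower in −log10 q, and shared peaks in general overlapped by a median of 222 bp.

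At the other extreme, the member farthest from any Fezf2-E peak was chrX:39505121-39505462, at 3.68 Mb, with a pileup of 12 and a fold of 8.59. Peaks at chrX:17740308-17740483, chr16:73946478-73946719 and chrX:50324560-50324735 followed at 2.52, 2.41 and 2.38 Mb, with folds of 8.59, 9.31 and 6.61. The fifth was the 18.6-fold peak of chromosome 7 named above. Of these 5, 3 were on chromosome X, where members had a median gap of 49290 bp, the longest of the 20 chromosomes. Chromosome X also had the fewest Fezf2-E peaks, 183. Chromosome 14 had the next fewest, 486, and the next longest median gap, 31527 bp. A total of 422 members (5.96%) had no peak of either list within 100 kb. By the rule no shared Fezf2-A peak can be counted here, so no trait of members is read from this share.

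Members lay on all 20 chromosomes in the list, and their share of the Fezf2-A peaks differed between chromosomes by more than the counting intervals. It was highest on chromosome X, at 118 of 224 peaks (52.7%, interval 46.2% to 59.1%), chromosome 14, at 281 of 545 (51.6%, 47.4% to 55.7%), chromosome 4, at 534 of 1086 (49.2%, 46.2% to 52.1%), and chromosome 7, at 518 of 1101 (47.0%). It was lowest on chromosome 8, at 366 of 1167 (31.4%, 28.8% to 34.1%), chromosome 10, at 363 of 1135 (32.0%), chromosome 13, at 299 of 914 (32.7%), and chromosome 1, at 360 of 1091 (33.0%). The largest number of members, 656, was on chromosome 2, where they made up 41.3%. Chromosome lengths of mm9 were not used here, so no density per length is given. Among the chromosomes listed here as highest and lowest in share, the median fold enrichment of members was higher on the former. It was 7.88 on X, 7.88 on 14, 7.16 on 4 and 7.51 on 7, against 6.19 on 8, 6.2 on 10, 6.2 on 13 and 6.61 on 1. The median −log10 q of members overlapped between these chromosomes, at 5.51, 5.29, 5.29 and 5.75 against 5.46, 5.48, 5.24 and 5.24. Beyond them the order of folds did not hold. Chromosome 19, with a share of 33.6%, had a median fold of 7.16, and chromosome 18, with 35.6%, had 7.38.

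**Figure D4:**
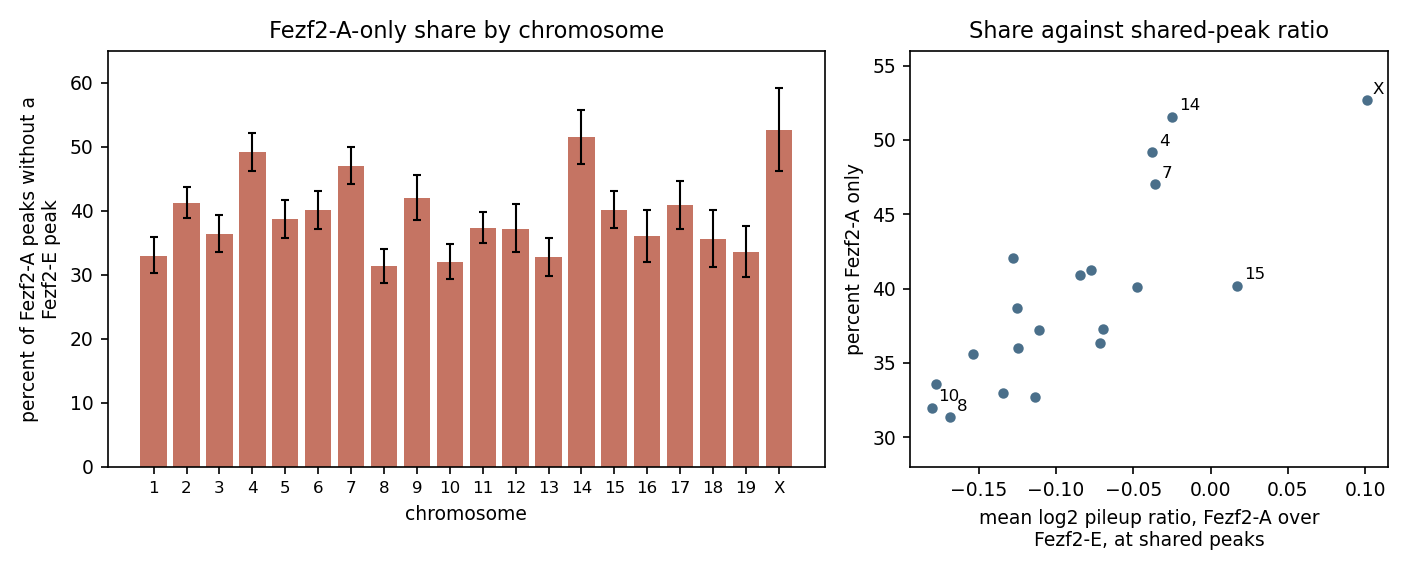
Left, percent of each chromosome's Fezf2-A peaks that had no Fezf2-E peak, with 95% Wilson intervals. Right, the same percent against the mean log2 ratio of pileup, Fezf2-A over Fezf2-E, at the shared peaks of each of the 20 chromosomes; chromosome X is highest on both axes and chromosomes 8 and 10 are low on both.

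The order of the chromosomes ran with the relative signal of the libraries at shared peaks. These are not members, but the same overlap rule set them apart using the same peak calls. There, the mean log2 ratio of pileup, Fezf2-A over Fezf2-E, was −0.09 over all 11139 shared peaks (SD 0.39 between peaks). By chromosome it was 0.10 on X, −0.02 on 14, −0.04 on 4 and −0.04 on 7, against −0.17 on 8 and −0.18 on 10. These pileups were not scaled for depth or fragment size, so the sign of the ratio does not tell which construct had more signal. The lowest implied backgrounds of the lists had a log2 ratio of −0.26. For fold enrichment the median log2 ratio at shared peaks was 0.17, from 0.08 on chromosome 10 to 0.35 on X. Across the 20 chromosomes the share of members and the mean pileup ratio had a Spearman rho of 0.79 and a Pearson r of 0.81. Without X the rho was 0.75. All 20 points share the same pair of libraries, so this is a description. Chromosomes that departed from the order included 15, with a mean pileup ratio of 0.02 and 40.2% members, and 9, with −0.13 and 42.0%. The share of members also ran against the median implied background of a chromosome's Fezf2-A peaks (rho −0.73), which was 1.4 fragments on X and 2.88 on 8. Among peaks above the floor of that background the share was 51.5% on X, 49.5% on 14, 46.6% on 4 and 46.4% on 7, and 30.8% on 8. At the floor it was 53.7% on X and 56% on 8, where only 25 peaks are at the floor. Among peaks of −log10 q from 5 to below 10 it was 56.4% on X and 31.7% on 8. The part of relative signal and of background in the differences between chromosomes was not tested.

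Fezf2-A-only peaks were mostly single when counted among themselves. The nearest other member lay a median of 41309 bp away, and 1613 members (22.8%, interval 21.8% to 23.8%) had another within 10 kb. For all Fezf2-A peaks the median was 10937 bp and 48.6% had another Fezf2-A peak within 10 kb, and for the 11139 shared peaks counted among themselves these values were 18835 bp and 39.6%. A longer list gives shorter gaps, and these sets differ in length. The 10023 peaks found only with Fezf2-E, also a longer list, had a median of 24858 bp and 34.4% within 10 kb. Counted against the same list, that of all Fezf2-A peaks, the sets were closer: 44.5% of members and 51.2% of shared peaks had another Fezf2-A peak within 10 kb. A shared Fezf2-A peak lay within 10 kb of 2219 members (31.4%).

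**Figure D5:**
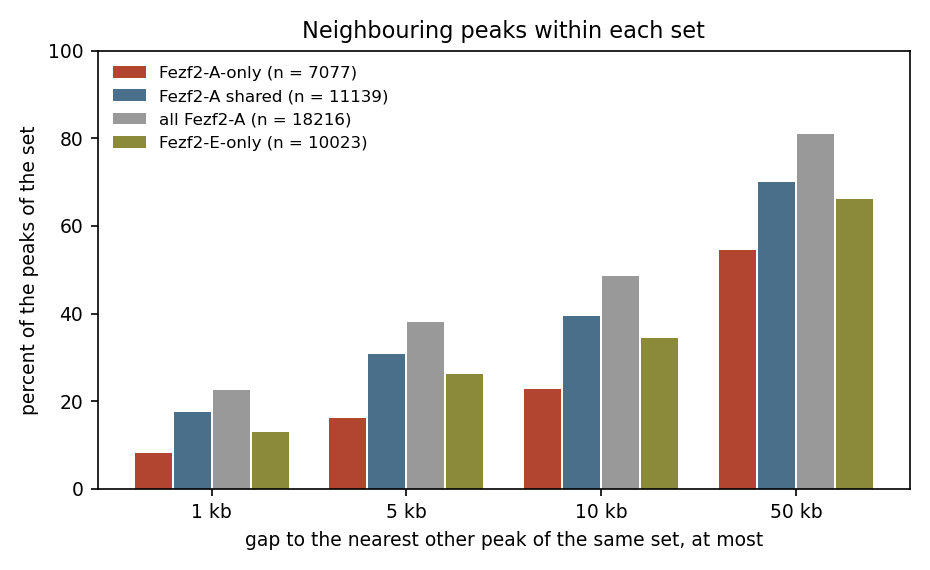
Percent of the peaks of each set (vertical axis) whose nearest other peak of the same set lies within 1, 5, 10 or 50 kb, for 4 sets of unequal size. Fezf2-A-only peaks are lowest at each distance, as at 22.8% within 10 kb against 48.6% for all Fezf2-A peaks.

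Joined at gaps of up to 10 kb, the members made 736 chains of 2 or more peaks, of which 619 were pairs, 98 held 3 peaks, 14 held 4 and 5 held 5. The other 5464 had no other member within 10 kb. Shared peaks are left out of that count, and 3152 of all members (44.5%) had another Fezf2-A peak, member or shared, within 10 kb. By contrast the shared peaks had chains of up to 16 members. The 5 chains with the most members lay at chr2:30563365-30581473, chr4:134259756-134276737, chr6:124754515-124764321, chr10:79604815-79636373 and chr13:6635580-6648593. The chain on chromosome 6 spanned the shortest stretch of these, 9.81 kb, and held the strongest peak of the 5 chains, chr6:124757487-124757720, with a pileup of 25, a fold of 10.3 and a −log10 q of 13.54. Its other members had folds of 3.58, 8.81, 8.45 and 7.02. The chain on chromosome 10 spanned the longest, 31.6 kb, and its members were even, with folds of 4.96 to 5.62 and pileups of 12 to 22.

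These chains were not free of Fezf2-E signal. Within the bounds of the chain on chromosome 10 lay 8 Fezf2-E peaks and 3 shared Fezf2-A peaks, and one member there had a gap of 21 bp to a Fezf2-E peak. The chains on chromosomes 2, 4 and 6 enclosed 5, 3 and 3 Fezf2-E peaks. The chain on chromosome 13, of 13.0 kb with folds of 5.09 to 7.74, enclosed 1, which was found with Fezf2-E alone, and no shared peak. In each of these 5 chains, then, peaks of both lists lay side by side. Among the chains of 4 members some enclosed Fezf2-E peaks and others none. The one at chr7:17198370-17204642 enclosed none, and its members had gaps of 109417 to 115499 bp to a Fezf2-E peak.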

How the data were processed

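ChIP-seq of N2A cells transfected with Fezf2-A-V5, Fezf2-E-V5 or V5 alone gave 1 library each. The authors deposited 1 peak list per Fezf2 construct, in mm9. The submitters' processing notes name Bowtie 0.12.5, SAMtools and MACS2 2.0.9, among other tools, without tying them to steps. Per the file headers, in the list for Fezf2-E, the control was the V5 library (25001753 tags), the Fezf2-E library had 22510850 tags, at most 2 duplicates per position were kept and the q limit was 0.01. The deposited columns are pileup (signal), fold enrichment (a ratio) and −log10 p and −log10 q. The Fezf2-A list, matched to its library by name alone, holds no such parameter lines, so its control and q limit are not stated, and its −log10 columns, whose names are unreadable, were identified by matching their place to the other list. Coordinates are 1-based and inclusive.

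Overlaps and gaps were computed in Python 3.11.15 (numpy 2.4.6, pandas 2.3.3, scipy 1.17.1), tested on simulated data and against bedtools 2.31.1. Intervals of medians are from order statistics. With 1 library per construct no test was possible. The peaks named are the 10 of highest fold, then the 5 of highest −log10 q and of highest pileup not yet taken, the 5 widest, the 3 narrowest, the 3 nearest and 5 farthest from a Fezf2-E peak, the 3 shared peaks of shortest overlap and the 5 chains with the most members. Members, rule and summaries were chosen with earlier results of these data known. Alternatives varied the q limit, the overlap rule, the chain gap, the peak width and the list length. Peaks were not tied to genes or sequence, since no genome or annotation of mm9 was used here, and the RNA tables were not used.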

Additional observations from a re-analysis of the deposited data

How the results depend on the processing

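With 1 library per construct no result has a replicate check, and depth limits what counts as absent: a Fezf2-E signal under the q limit is not in the list. No paired analysis was possible because the result comes from no test and each construct has 1 library. Across 106 recomputed values, 45 stayed within the counting interval of the main value, among them all those that left out unplaced and Y sequences or merged lines (neither exists in these lists), those without peaks of high background, and the median distance between summits.

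The share of Fezf2-A peaks without a Fezf2-E peak was 44.6% with both lists at −log10 q of at least 5, 55.0% at 10, and 31.4% with the Fezf2-A list alone at 5. It was 50.7% where a Fezf2-E peak must cover at least 50% of the peak, 30.5% where one within 1 kb counts as shared, and 46.1% where a Fezf2-E summit must lie inside. Both limits of 10 left 2291 peaks in place of 7077, of which 523 had no Fezf2-E peak of any q, and the Fezf2-A list at 5 left 4103. Alternatives added after seeing the data gave 45.2% with every peak set to 200 bp around its summit and 44.4% with the Fezf2-E list shortened to the length of the Fezf2-A list.

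In that order of these 6 settings, the percent of members with another within 10 kb was 19.4, 10.4, 13.1, 29.4, 18.5 and 27.4, and with the added ones 27.5 and 25.7. Chains of 5 kb and 50 kb gave 16.2% and 54.6%, and neighbours among all Fezf2-A peaks 44.5%. The median gap was 20239, 87299, 13536, 4409, 21122 and 7157 bp, and 7804 and 14927.5 bp with the added ones. The median fold was 8.22, 10.8 and 8.22 under the limits on q, 7.16 under 50% coverage, 7.11 with the 1 kb rule and 7.08 at 200 bp. The median −log10 q was 7.04, 12.3 and 6.74, 5.75 under 50% coverage and 5.48 at 200 bp, and the median pileup 17, 23 and 17. Median width was 258, 357 and 242 bp, 257 bp under 50% coverage and 240 bp with the shortened list, and within bands of −log10 q 232 (2 to 3), 225 (3 to 5) and 293 bp (10 or more). On chromosome X the share was 64.6%, 83.3% and 45.6% under the limits on q and 68.8% under 50% coverage. On chromosome 8 it was 34.6%, 46.5%, 24.3%, 42.6%, 23.1% and 39.9%, and 38.8% and 36.0% with the added ones, so that X stayed above 8 in each alternative. A limit on the Fezf2-A list raises its median −log10 q by construction, and a limit on both lists also changes which peaks are members. The rules of 50% coverage and of a summit inside count some peaks that overlap a Fezf2-E peak as members, with no gap. The 1 kb rule leaves out all members with a gap of up to 1 kb. These 3 rules thus move the median gap by construction. The cause of the other shifts was not tested.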

Other observations

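Windows of 10 Mb with at least 30 Fezf2-A peaks were compared after the values by chromosome had been seen. In 205 such windows the median share of Fezf2-A-only peaks was 38.5%, and 23 windows had more than 50% of them. The window of chromosome X from 10 to 20 Mb stood highest, with 29 of 37 Fezf2-A peaks found with Fezf2-A alone (78.4%, interval 62.8% to 88.6%) and 11 Fezf2-E peaks in all. The 29 members lay between positions 10041166 and 17740483 in 25 chains or single peaks, with folds of 4.54 to 19.3 and a median of 7.88, so that they were spread over the window rather than gathered at 1 place. Windows of chromosome 4 from 80 to 90 Mb, at 32 of 54, and chromosome 14 from 70 to 80 Mb, at 49 of 83, came next. The lowest was chromosome 1 from 190 to 200 Mb, with 13 of 68 (19.1%).

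Within bands of −log10 q, the share of Fezf2-A-only peaks also fell as the implied background rose. Pileup rose along with that background. From 5 to below 10, the median pileup of members was 13 fragments at the floor and 23.5 from 4 to below 20. Fold enrichment, which is pileup over background, was not held alike, so these measures were not set apart. For −log10 q from 5 to below 10 it was 53.7% of the 1267 peaks at the floor of the background, 42.2% from there to below 2 fragments, 38.3% from 2 to below 3, 33.9% from 3 to below 4 and 30.4% from 4 to below 20. At −log10 q of 10 or more it was 21.8% at the floor and 6.99% from 4 to below 20 fragments.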
